A study of Mus musculus with 3 samples.

Results

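Lin28a, Lin28b and 8 genes linked to them through the let-7 microRNA pathway or through early embryonic tissue were followed across the 3 arrays of a small Maf knockout study in mouse embryos. The 10 genes were Lin28a, Lin28b, Hmga2, Igf2bp1, Igf2bp2, Igf2bp3, Trim71, Nr6a1, Prtg and Sall4, and their probes were found through the RefSeq accession that the array files give. Of the 10, 9 had a probe, 13 probes in all, out of 16358 genes and 41170 probes on the array. No probe matched the accessions of Trim71, so it has no value here. The genes were chosen on their levels on these same arrays, in particular the difference between E10.5 and E9.5, so every level below is a description and no test is attached to it.

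The 3 groups were whole embryos of mixed background. The first was MafF-/-:MafG-/-:MafK-/- at embryonic day E10.5, called triple null here. The second was MafF-/-:MafG+/+:MafK-/- at E10.5 and the third was the same genotype at E9.5, both called MafG-intact. Every group lacked MafF and MafK, small bZIP proteins that pair with CNC and BACH factors on DNA, so no wild-type embryo entered any comparison. Each group was 1 array hybridised with Cy3-labelled RNA of 3 pooled embryos, with no replicate. A whole-embryo level does not tell fewer cells of a type from less RNA per cell.

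Lin28 proteins bind the precursors of let-7 microRNAs and keep them from being cut to the mature form, while mature let-7 represses the messengers of Lin28a, Lin28b, Hmga2, the Igf2bp genes and Trim71. In animals from worms to mammals the Lin28 side of this loop is high in early embryos and declines as tissues differentiate, when let-7 accumulates. Sall4 is a zinc-finger factor of pluripotent cells and the caudal embryo. Nr6a1, also called germ cell nuclear factor, is an orphan nuclear receptor that silences Pou5f1 after gastrulation. Prtg, protogenin, is a cell-surface protein of the DCC and neogenin family made in the early neural tube and somites.

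The let-7 molecules themselves were not measured by these arrays. Their sequences are given because they are what Lin28 and the target genes share. In the RefSeq table (build GRCm38.p6), 10 of 11 differently named mature 5′ members of the let-7 family carried the seed GAGGUAG at bases 2 to 8, the exception being let-7j. In 3 of them, with the seed in capitals, the sequences outside the seed are nearly alike:
mmu-let-7a-5p: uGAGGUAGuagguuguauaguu
mmu-let-7g-5p: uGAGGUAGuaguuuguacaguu
mmu-miR-98-5p: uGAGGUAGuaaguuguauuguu

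The zinc knuckles of Lin28 proteins recognise GGAG in the loop of let-7 precursors. Between the arms of 12 let-7 family hairpins, 9 held GGAG, against 8.07% of 644 mouse hairpins with both arms named. The hairpin of let-7g, on chr9:106178840-106178927 on the plus strand, has it (capitals), and that of let-7b, on chr15:85707319-85707403 on the plus strand, has none between its arms:
let-7g hairpin: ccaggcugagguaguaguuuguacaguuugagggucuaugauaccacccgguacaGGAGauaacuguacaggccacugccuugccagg
let-7b hairpin: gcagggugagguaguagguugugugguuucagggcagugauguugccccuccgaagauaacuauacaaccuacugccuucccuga
The hairpins of let-7c-2 and miR-98 also lacked it there.

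Levels are log2 processed signal minus the 75th percentile of the array, so a level of 0 means as bright as that percentile, and a difference of 1 is 2-fold. Feature Extraction, the scanner software, assigned each of the 13 probes a nearly constant error, 10% to 10.1% of its signal. This gives a difference between 2 arrays an error of 0.20 or 0.21 on the log2 scale, called the spot error below. It covers the spot and not the embryos. Probes spotted repeatedly spread less, with a median standard deviation of 0.05 to 0.08 within an array at levels above -4. A difference within the spot error can therefore still exceed the spread of repeated spots. All 13 probes were well above background on all 3 arrays, so no measured member depended on the filter for detection above background. Over the whole array 69.2% of probes passed this mark on the triple null array, 70.4% on that of E10.5 MafG-intact embryos and 69.1% on that of E9.5. Mafg itself failed the mark in triple null embryos, at least 173-fold below its level in E10.5 MafG-intact embryos.

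Lin28a was far apart between the arrays. Its single probe (NM_145833, chromosome 4) read 2.02 in triple null embryos, against -0.88 in E10.5 MafG-intact embryos and 1.62 in E9.5 MafG-intact embryos. As processed signal this was 4375 on the triple null array, 773 on the E10.5 MafG-intact array and 3276 on the E9.5 MafG-intact array, before scaling. The triple null and E9.5 pools were thus both bright, and the E10.5 MafG-intact pool stood alone as dim. Lin28a was 7.46-fold higher in triple null than in MafG-intact embryos at E10.5, which placed it 4 from the top of 12529 genes. Between the MafG-intact days it differed by -2.50, a 5.66-fold lower level at E10.5 and 10 from the bottom of 12514 genes. Triple null embryos at E10.5 stood 0.40 above MafG-intact embryos at E9.5, outside the spot error.

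Lin28b, the paralogue on chromosome 10 that also blocks let-7 maturation, had the same order of arrays with smaller gaps. Its brighter probe read 3.47 in triple null embryos, 2.63 in E10.5 MafG-intact embryos and 3.22 in E9.5 MafG-intact embryos. The dimmer probe read -1.71, -2.54 and -1.80 in the same order of arrays. The probes differed in brightness and hardly in their differences, which were 0.83 and 0.84 between the E10.5 groups and -0.59 and -0.74 between the MafG-intact days. Averaged, Lin28b was 1.78-fold higher in triple null embryos and 1.58-fold lower in the older of the MafG-intact pools, so it was under 2-fold in both. The triple null level was 0.17 above that of E9.5, with probes at 0.25 and 0.09.

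**Figure D1:**
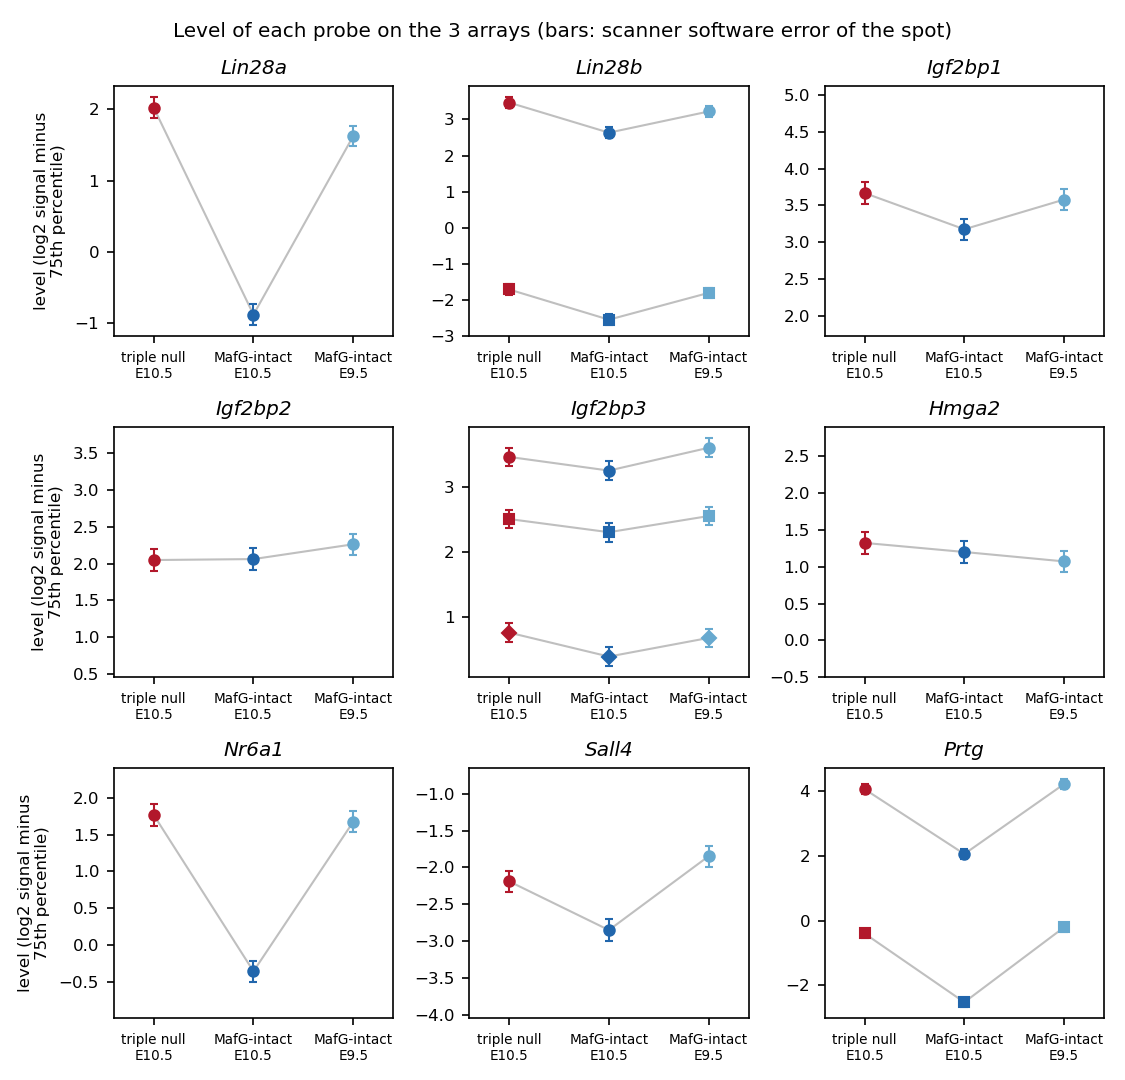
Level of each of 13 probes (log2 processed signal minus the array's 75th percentile) on the triple null E10.5, E10.5 MafG-intact and E9.5 MafG-intact arrays, 1 panel per gene; symbols of different shape are different probes, bars are the scanner software's error, and vertical ranges differ between panels. Lin28a, Nr6a1 and both Prtg probes are far lower on the E10.5 MafG-intact array than on the others, while Hmga2 and Igf2bp2 span 0.25 and 0.21 across the arrays.

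Nr6a1, on chromosome 2, followed Lin28a closely in shape. Its probe (NM_010264) read 1.77 in triple null embryos, -0.36 in E10.5 MafG-intact embryos and 1.67 in E9.5 MafG-intact embryos. The bright arrays were again triple null and E9.5, here only 0.09 apart, which is within the spot error. At E10.5 Nr6a1 was 4.36-fold higher in triple null than in MafG-intact embryos, 11 from the top of all genes. Between the MafG-intact days it was 4.09-fold lower at E10.5, 24 from the bottom.

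Prtg, on chromosome 9, was read by a bright and a dim probe that differed by a like amount. The bright probe read 4.06 in triple null embryos, 2.06 in E10.5 MafG-intact embryos and 4.22 in E9.5 MafG-intact embryos, and the dim probe read -0.40, -2.52 and -0.20. The E10.5 MafG-intact pool was the low one for both probes. Prtg was 4.18-fold higher in triple null than in MafG-intact embryos at E10.5 (probes at 2.00 and 2.12), 14 from the top. It was 4.72-fold lower in MafG-intact embryos at E10.5 than at E9.5 (probes at -2.16 and -2.32), 17 from the bottom. Unlike Lin28a, Prtg was slightly lower in triple null embryos than in E9.5 embryos, by -0.17, within the spot error on both probes.

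Sall4, also on chromosome 2, was dim and less far apart. It read -2.19 in triple null embryos, -2.85 in E10.5 MafG-intact embryos and -1.85 in E9.5 MafG-intact embryos. It was 1.58-fold higher in triple null than in MafG-intact embryos at E10.5, and 2.01-fold lower at E10.5 than at E9.5 in MafG-intact embryos. Sall4 thus just passed 2-fold between the days, and Lin28b, the next gene at -0.66, did not. With normexp background correction the Sall4 difference was -0.90, under 2-fold. The triple null pool lay between the MafG-intact pools for Sall4, -0.34 from E9.5.

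The Igf2bp genes encode RNA-binding proteins that hold Igf2, Myc and other messengers in the cytoplasm, and every probe of the 3 genes was above the 75th percentile on every array. Igf2bp1 read 3.67 in triple null embryos, 3.18 in E10.5 MafG-intact embryos and 3.58 in E9.5 MafG-intact embryos, differences of 0.49 between the E10.5 groups and -0.40 between the days. Igf2bp3 had 3 probes, and all 3 were lowest on the E10.5 MafG-intact array. Their differences between the E10.5 groups were 0.21, 0.20 and 0.37, and those between the days were -0.35, -0.25 and -0.29. The 0.20 of the middle probe was within its error. Igf2bp2 read 2.05, 2.06 and 2.26 for triple null, E10.5 MafG-intact and E9.5 MafG-intact. Its difference at E10.5 was -0.01, and it has no settled sign, since it was 0.00 with centring on detected probes and 0.01 with centring on spike-in probes. Its difference between the days, -0.20, was within the spot error. On these single arrays Igf2bp1 was 1.41-fold and Igf2bp3 1.20-fold higher in triple null than in E10.5 MafG-intact embryos, the latter little beyond the spot error. With 1 pool a group, this does not show whether the groups differ.

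Hmga2, an AT-hook chromatin protein of growing embryonic tissue and a classic let-7 target, did not follow Lin28a. Its probe (NM_010441, chromosome 10) read 1.32 in triple null embryos, 1.20 in E10.5 MafG-intact embryos and 1.07 in E9.5 MafG-intact embryos. The difference between the MafG-intact days was 0.13, so Hmga2 was not lower at E10.5, and this and the 0.12 between the E10.5 groups were within the spot error. The description of the genes as falling after E9.5 therefore does not cover Hmga2, and it covers Igf2bp2 only by a difference within the spot error.

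**Figure D2:**
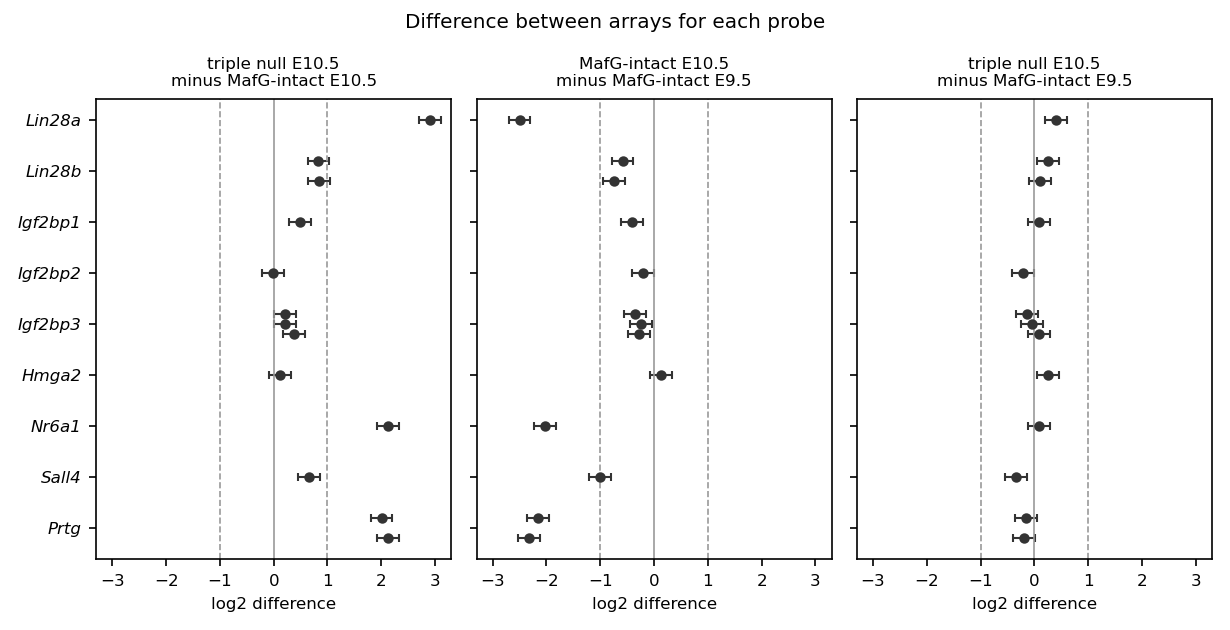
Log2 difference of each of 13 probes in the 3 comparisons, 1 row per gene, with bars for the error that the scanner software assigns and dashed lines at 2-fold. Lin28a, Nr6a1 and Prtg lie past 2-fold in both comparisons with the E10.5 MafG-intact array, and all probes lie inside 2-fold between triple null E10.5 and E9.5 MafG-intact.

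Read together, 3 of the 9 measured genes were at least 2-fold higher in triple null than in MafG-intact embryos at E10.5 and none was 2-fold lower. Of all genes, 0.982% were at least 2-fold higher and 4.47% at least 2-fold lower in that comparison. The median difference of the members was 0.66, beside 0.06 over all genes. Between the MafG-intact days, 4 of 9 were at least 2-fold lower at E10.5 and none higher, while 1.07% of all genes were lower and 4.12% higher by that much. The count was 3 of 9 with normexp, where Sall4 was no longer 2-fold lower. Here the members' median was -0.66, beside -0.05 over all genes. These shares follow from how the genes were chosen, and nothing is read from them. Both comparisons use the single E10.5 MafG-intact array, on which 7 of the 9 genes were lowest, so the 2 sets of values are not independent of each other. Over 12429 genes above background on every array, 50.2% were also lowest on that array.

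The remaining comparison, triple null E10.5 against E9.5 MafG-intact, does not use that array. None of the 9 genes was 2-fold apart, beside 0.783% of all genes (0.256% higher and 0.527% lower). The differences ran from -0.34 for Sall4 to 0.40 for Lin28a, with 5 genes above 0, 4 below it and a median of 0.09. Of 13 probes, 8 were within their spot error, 3 were higher beyond it (Lin28a, Hmga2 and the bright Lin28b probe) and 2 were lower beyond it (Sall4 and Igf2bp2). With so small a share over all genes, 9 genes show no departure from it. Lin28a was the member farthest apart, with a difference above that of 96.7% of 12521 genes. Hmga2 was above 92.7% of them and Sall4 above 4.76%, and the other members lay between Lin28a and Sall4.

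**Figure D3:**
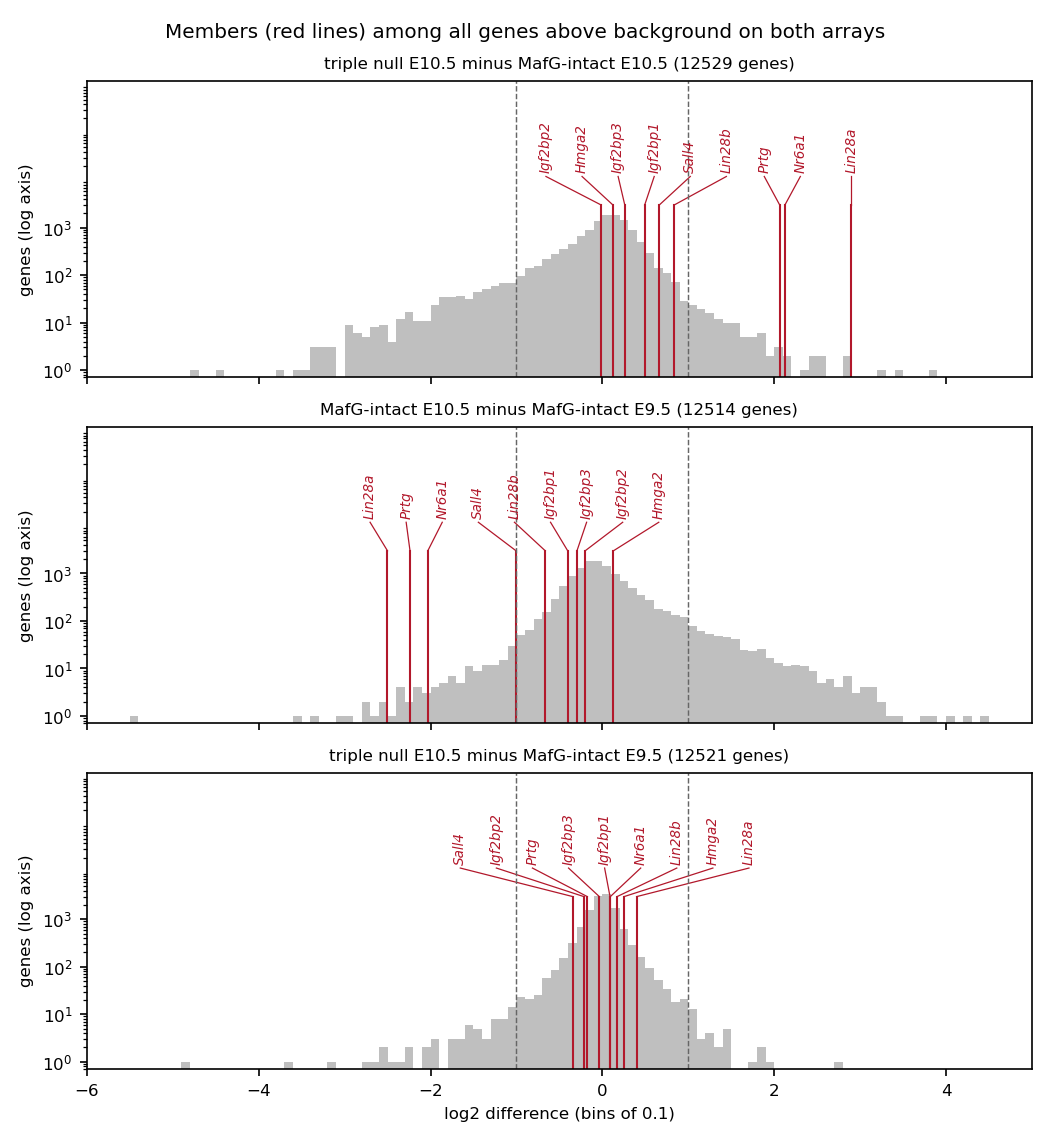
Histograms of the log2 difference over all genes detected on the pair of arrays compared (12529, 12514 and 12521 genes, log vertical axis, dashed lines at 2-fold), with a red line at each of the 9 genes. Lin28a, Nr6a1 and Prtg lie in the sparse upper tail of the first panel and the sparse lower tail of the second, and all 9 lie inside the 2-fold lines of the third, with Lin28a (0.40) and Sall4 (-0.34) the farthest from 0.

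None of the 10 genes lies on the X or Y chromosome. The pools differed in sex markers: Xist was detected in E10.5 MafG-intact embryos alone, while 4 Y-linked genes (Uty, Kdm5d, Eif2s3y, Ddx3y) were detected in the triple null and E9.5 pools and not in that one. The part of pool sex in the differences from the E10.5 MafG-intact array was not tested. Of 30 measured coding genes within 2 places of a member on its chromosome, none was 2-fold apart between the E10.5 groups (range -0.66 to 0.63, beside 5.45% of all genes 2-fold apart) or between the MafG-intact days (range -0.90 to 0.81, beside 5.19%), and so few genes show no departure from those shares. Nfatc2, a dim neighbour of Sall4 named after its values were seen, was at 0.63 and -0.90, close to Sall4. The neighbours of Lin28a on chromosome 4, Hmgn2 and Dhdds, differed by 0.15 and -0.23 at E10.5. Cd52, farther along and not among the 30, was not well above background in triple null and E9.5 embryos and read -3.43 in E10.5 MafG-intact embryos, opposite to Lin28a. B4galnt2, a dim neighbour of Igf2bp1 also not among the 30, had the reverse order. It read -6.34 in triple null and -6.74 in E9.5 embryos and was not well above background in E10.5 MafG-intact embryos.

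The promoters of the 3 genes that stood farthest apart are shown because their levels had the same shape across the arrays. Each is the 250 bases before the RefSeq start in GRCm38.p6, on the strand of the gene. The motifs searched on both strands were TGCTGA and TGACNNNGC, which are parts of the sites that small Maf dimers bind, together with general promoter elements, namely the GC box GGGCGG, the CCAAT box and the TATA box written TATAAA. Matches are in capitals. The Lin28a promoter is chr4:134018817-134019066 (minus strand), that of Nr6a1 chr2:38926462-38926711 (minus strand) and that of Prtg chr9:72807024-72807273 (plus strand):
Lin28a: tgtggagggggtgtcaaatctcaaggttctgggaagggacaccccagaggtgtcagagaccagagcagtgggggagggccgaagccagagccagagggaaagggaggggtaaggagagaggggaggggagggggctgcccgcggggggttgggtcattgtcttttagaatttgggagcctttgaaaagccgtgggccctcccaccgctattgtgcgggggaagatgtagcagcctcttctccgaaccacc
Nr6a1: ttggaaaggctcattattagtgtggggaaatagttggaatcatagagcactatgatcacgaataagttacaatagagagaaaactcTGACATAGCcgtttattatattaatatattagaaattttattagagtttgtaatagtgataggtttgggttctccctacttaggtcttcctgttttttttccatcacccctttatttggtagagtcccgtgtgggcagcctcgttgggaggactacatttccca
Prtg: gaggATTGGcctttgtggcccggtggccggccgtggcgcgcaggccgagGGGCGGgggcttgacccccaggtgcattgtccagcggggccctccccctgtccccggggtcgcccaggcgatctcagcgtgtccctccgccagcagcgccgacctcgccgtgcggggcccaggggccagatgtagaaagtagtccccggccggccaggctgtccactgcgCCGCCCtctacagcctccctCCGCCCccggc

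The 3 promoters had little in common by these letters. That of Lin28a held none of the 5 motifs. That of Nr6a1 held 1 match to TGACNNNGC, which 10.2% of 32851 promoters in the table held. That of Prtg held GGGCGG 3 times and CCAAT once, present in 32.7% and 33.8% of promoters. Their GC content was 61.2% for Lin28a, 37.6% for Nr6a1 and 75.2% for Prtg, with a median of 52.4% over all promoters. TGCTGA, found in 16.1% of promoters, occurred among the members' promoters only in that of Lin28b, and TATAAA, found in 12.4%, in none of the 9 listed for 8 members. Another Nr6a1 promoter in the table held none of the motifs.

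Genes of the machinery that makes and destroys let-7 were also followed. Of 19 listed genes 17 were measured, and none was 2-fold apart in any comparison. Over all genes, 5.45% were 2-fold apart between the E10.5 groups and 5.19% across the MafG-intact days. For triple null against E9.5 that share was 0.783%. A list of 17 genes shows no departure from such shares. At E10.5 the differences farthest from 0, triple null over MafG-intact, were those of the dim Argonaute genes Ago4 (-0.70) and Ago1 (-0.58). Drosha, which makes the first cut, stood at 0.24, its partner Dgcr8 at 0.35, the exporter Xpo5 at 0.48 and Dicer1 at -0.05. The uridyl transferases that Lin28 proteins recruit to pre-let-7, Tut4 and Tut7, were at 0.01 and -0.18, and Dis3l2, the nuclease that degrades the tailed precursor, at -0.19. Across the MafG-intact days Xpo5 was at -0.45 and Ago4 at 0.41. The list medians were 0.08 and -0.02, near those of all genes.

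Other reported let-7 targets leaned the way of the members. None was 2-fold apart between the E10.5 groups or between the MafG-intact days, beside 5.45% and 5.19% of all genes. So few genes show no departure from those shares. Both comparisons use the single E10.5 MafG-intact array, so their signs are not independent of each other. Of 22 measured, 17 were above 0 between the E10.5 groups (77.3%, beside 58.4% of all genes), with a median of 0.22. From E9.5 to E10.5 in MafG-intact embryos 18 were below 0 (81.8%, beside 57.2% of all genes), with a median of -0.29. Arid3b, a DNA-binding factor, was at 0.72 and -0.66 in these comparisons, Cdk6 at 0.61 and -0.63, Myc at 0.54 and -0.85 and Mycn at 0.47 and -0.60. Arid3b, for example, read 2.14 in triple null, 1.41 in E10.5 MafG-intact and 2.07 in E9.5 MafG-intact embryos. Not all leaned: E2f6, a transcription factor of the E2F family, ran the other way at -0.24 and 0.36, Ccnd1 was at -0.04 and 0.08, and Igdcc3, a relative of Prtg, at -0.04 and 0.07. Against E9.5, triple null values of the 22 ran from -0.32 to 0.19. The lean was not particular to this list. Of 8 HMG chromatin genes, with Hmga1 on both lists, 7 were above 0 between the E10.5 groups and 7 below 0 between the days. The lists of Prtg relatives and of Trim71 relatives and targets, given below, leaned the other way.

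Among Sall and pluripotency genes none of 11 measured was 2-fold apart between the E10.5 groups, beside 5.45% of all genes. Sall1, the paralogue of Sall4 active in kidney and limb, was at 0.80 between the E10.5 groups and -0.83 between the MafG-intact days, and Sall3 at 0.40 and -0.45, while Sall2 was at 0.00 and -0.07. Dppa5a, a pluripotency-associated RNA-binding gene, was at -0.54 and 0.36. The de novo DNA methyltransferase gene Dnmt3b was at 0.52 and -0.55. Pou5f1, the gene Nr6a1 silences, had a probe that was not well above background on any array. Tdgf1, a Nodal co-receptor, was not well above background on the E10.5 MafG-intact array. It was at least 1.97-fold higher in triple null embryos and at least 2.54-fold higher in E9.5 MafG-intact embryos than on that array.

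Of the IGF axis, Igf2, whose messenger the Igf2bp proteins bind, read 4.67 in triple null, 4.62 in E10.5 MafG-intact and 4.68 in E9.5 MafG-intact embryos. It was thus level across arrays on which Igf2bp1 was not. Igf1 ran opposite to Lin28a, at -0.64 in triple null, 0.41 in E10.5 MafG-intact and -0.86 in E9.5 MafG-intact embryos, differences of -1.05 and 1.27. Of 76 pathway-list genes detected on both E10.5 arrays, Igf1 alone was 2-fold apart, beside 5.45% of all genes in either direction. Of 77 detected on both MafG-intact arrays, Igf1 was again alone, beside 5.19%. Tdgf1, not detected on the E10.5 MafG-intact array, is outside these counts. Igf2r was at 0.32 and -0.43, and Igf1r at -0.08 and -0.13.

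None of the 5 measured relatives of Prtg in the DCC and neogenin family was 2-fold apart between the E10.5 groups, beside 5.45% of all genes. All 5 were below 0, as were 41.6% of all genes, and 3 of them by little: Neo1 was at -0.02, Igdcc3 at -0.04 and Cdon at -0.09. Igdcc4 was at -0.89, and 0.91 between the days, and Boc, a Hedgehog co-receptor, was at -0.22. The listed messengers that Trim71 represses were below 0 between the E10.5 groups, as were 41.6% of all genes. Between the days they were above 0, as were 42.8%. Cdkn1a, the cell-cycle inhibitor p21, was at -0.49 and 0.88, Rbl1 at -0.31 and 0.23 and Rbl2 at -0.24 and 0.37. Relatives of Trim71 on the same list included Trim2 at -0.27 and 0.29 and Trim32 at 0.14 and 0.04. Trim71 itself had no value, and its part in these levels was not tested. Among the chromatin relatives of Hmga2, Hmga1 was at 0.35 and -0.35 and Hmgn1 at 0.29 and -0.27, small differences of the same sign as those of Lin28a.

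**Figure D4:**
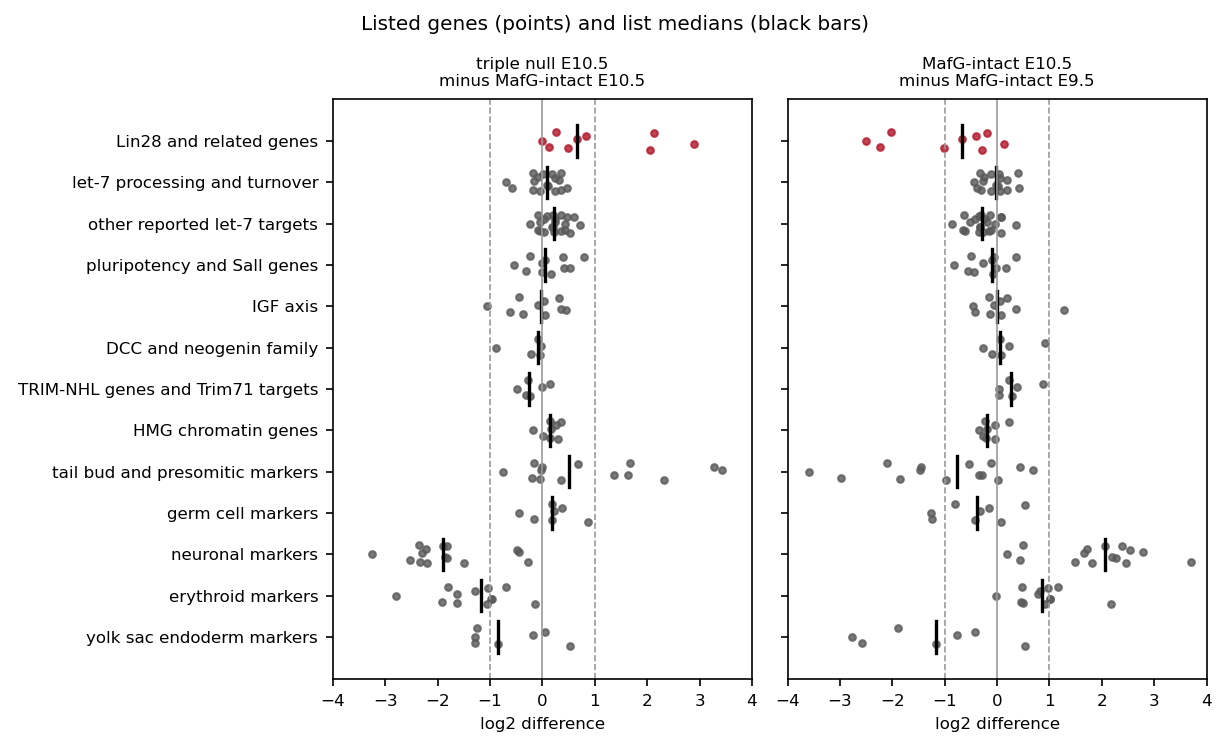
Log2 differences of the genes on each list (points) with the list median (black bar), for triple null over MafG-intact (both E10.5) and for E10.5 over E9.5 (both MafG-intact), with dashed lines at 2-fold. The pathway lists sit near 0, with Igf1 the single gene past 2-fold among those detected on both arrays. Of 14 tail bud markers 6 pass 2-fold on the side of Lin28a, and others lie on both sides of 0. Neuronal and erythroid markers lie almost wholly on the opposite side.

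Markers of tissues moved along with these genes. Of 14 tail bud and presomitic mesoderm markers above background on both E10.5 arrays, 6 were at least 2-fold higher in triple null embryos, beside 0.982% of all genes. Of 14 above background on both MafG-intact arrays, 6 were at least 2-fold lower at E10.5 than at E9.5, beside 1.07% of all genes. Cdx4 was at 3.42 and -3.58, Cdx2 at 3.27 and -2.98 and Msgn1 at 2.32 and -2.10. Cdx1 and Hes7 were not detected on the array of E10.5 MafG-intact embryos. The whole list was less uniform: 8 of the 14 were above 0 between the E10.5 groups (57.1%, beside 58.4% of all genes), and its summed level was 11.7, 11.1 and 13.2 times the 75th percentile on the triple null, E10.5 MafG-intact and E9.5 arrays, since brighter members such as Dll1 (-0.19), Fgf8 (-0.05) and Dll3 (-0.76) were not higher in triple null embryos. Neuronal markers ran the other way, with 12 of 15 at least 2-fold lower in triple null than in E10.5 MafG-intact embryos, beside 4.47% of all genes, and summed levels of 12.4, 46.6 and 12.6 in the same order of arrays. Erythroid markers had 8 of 12 at least 2-fold lower in that comparison, beside the same 4.47% of all genes, with summed levels of 347, 608 and 412. The part of these tissues in the levels of Lin28a and its related genes was not tested.

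The genes closest to Lin28a in pattern were taken by distance over its differences between the E10.5 groups and between the MafG-intact days, among 12254 genes that all 3 arrays detected, clone and predicted-gene names left out. In order they were Phlda2, Igsf5, Car4, Cdx2, Msgn1, Prtg, Nr6a1 and Foxi2, at distances of 0.39 to 0.93. Phlda2, an imprinted gene that limits placental growth, read 0.20 in triple null, -2.31 in E10.5 MafG-intact and 0.14 in E9.5 MafG-intact embryos. Car4, a membrane carbonic anhydrase, read -0.76, -3.27 and -0.50. Cdx2, a homeobox factor of the caudal embryo, read -0.66, -3.94 and -0.96. Igsf5 was close to the limit of detection on the E10.5 MafG-intact array, at -6.85. The list rests on 3 arrays, and 2 of the 8 genes were members.

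Near the median of the 9 members (0.66 and -0.66), the pattern was far more common. The 8 nearest genes lay within 0.03 of it and were Gprc5a, Wdr74, Gpx3, Alpk3, Fam185a, Soat1, Bspry and Slc2a1. Slc2a1, the glucose transporter GLUT1, read 5.06 in triple null, 4.42 in E10.5 MafG-intact and 5.09 in E9.5 MafG-intact embryos. Gpx3, a secreted glutathione peroxidase, read 1.48, 0.82 and 1.47.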

How the data were processed

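Per the labels' protocols, RNA of whole embryos was amplified, carried Cy3 and went onto Agilent arrays of 1 colour. Per the file headers and the submitters' processing notes, the software the authors used was Agilent Feature Extraction 9.5.3.1 (protocol GE1-v5_95_Feb07, design 014868, annotation mm7). The processed signal they deposited is an intensity, linear and with background already subtracted. The value table the authors deposited holds the same intensity rounded, to within 0.497%.

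The log2 intensity of 43379 non-control spots was centred on the 75th percentile of each array (1078 for triple null, 1420 for E10.5 MafG-intact and 1064 for E9.5 MafG-intact). Outlier spots were left out, and no non-control spot was saturated. All arrays lay on slide 1 and in scan 1. A RefSeq table of GRCm38.p6 gave symbols, chromosomes and neighbours, and no coordinates were carried over from mm7. Probes of a gene detected (well above background) on 1 array or more were averaged, leaving 13184 genes. A gene was compared where both arrays detected it. "At least N-fold" sets the bright array against the higher of the dim signal and the lowest detected signal.

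With 1 array per group there is no p-value, and precision is limited by that number. The members, gene lists and alternatives were chosen with earlier results of these data known. Named genes were the members, the list genes that were 2-fold or farthest apart, and the 8 genes nearest in pattern to Lin28a and to the members' median. Other list genes were named for their role after their values were seen. The steps were tested on simulated data. Python 3.11.15 (pandas 2.3.3, numpy 2.4.6, matplotlib 3.10.9) and R 4.3.3 with limma 3.58.1 were used.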

Additional observations from a re-analysis of the deposited data

How the results depend on the processing

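Over 9 alternatives that change values (normexp background correction, quantile normalization, centring on detected or on spike-in probes, 3 filters on dim probes, the brightest probe, the deposited value table), 26 of 27 member differences kept their sign, and 26 of 27 kept their side of 2-fold. The sign that turned was that of Igf2bp2 between the E10.5 groups (-0.04 to 0.01). The side that changed was that of Sall4 between the MafG-intact days, at -0.90 with normexp. Keeping genes at or above the median level left Sall4 out, so it had 8 alternatives. With that filter 3 of 8 members were 2-fold lower between the MafG-intact days. Lin28a ranged from 2.81 to 2.92 between the E10.5 groups and from -2.53 to -2.43 between the days. At 1.5-fold, 5 members were apart between the E10.5 groups, in place of 3. The count of pathway genes apart between the E10.5 groups, 1, became 0 with normexp or at 3-fold, 2 with the brightest probe, 4 with no filter on dim probes and 7 at 1.5-fold. Between the MafG-intact days, 1 became 0 at 3-fold, 2 with no filter and 8 at 1.5-fold, and between triple null and E9.5, 0 became 2 with no filter. Over all genes, normexp left 54 higher and 213 lower between the E10.5 groups, in place of 123 and 560, no filter on dim probes gave 362 and 880, and keeping genes at or above the median level gave 20 and 79. Apart from fold thresholds and filters, whose construction changes the counts, the cause was not tested. No paired analysis was possible because each group holds 1 array. With 1 array a group, differences near the spot error cannot be ordered.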

Other observations

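Germ cells also use Lin28a and Sall4, and their markers differed widely in brightness, from Nanos3 at -5.90 to Ifitm3 at 0.52 among those detected in triple null embryos. Of 10 listed, 7 were detected in triple null embryos and 8 in MafG-intact embryos of either day. Between the E10.5 groups none of 7 was 2-fold apart, beside 5.45% of all genes. Prdm1, a repressor needed to found the germ line and also active elsewhere in the embryo, was at 0.88. In MafG-intact embryos at E10.5 over E9.5, 2 of 8 were at least 2-fold lower, beside 1.07% of all genes. They were Ddx4 at -1.27 and Dppa3 at -1.24. For triple null over E9.5 MafG-intact embryos, 1 of 7 was at least 2-fold lower, Ddx4 at -1.07, beside 0.527% of all genes. Dppa3 was not well above background in triple null embryos, where it was at least 3.72-fold lower than in E9.5 MafG-intact embryos.

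Most measured yolk sac endoderm markers were lower in each E10.5 pool than at E9.5, though their summed level was 12.2 in triple null, 24.0 in E10.5 MafG-intact and 22.2 in E9.5 MafG-intact embryos. That sum was mostly Afp, the brightest of them, which read 3.03, 4.28 and 3.76 in the same order. Afp alone of the 7 compared was higher at E10.5 than at E9.5 in MafG-intact embryos. Of 7 compared between triple null and E9.5 MafG-intact embryos, 5 were at least 2-fold lower in triple null embryos, beside 0.527% of all genes at least 2-fold lower. Between the MafG-intact days, where Lin28a was also lower at E10.5, 4 of 7 were at least 2-fold lower, beside 1.07% of all genes, with a median of -1.16. In that comparison Spp2 was at -2.78 and Amn at -2.58. Between the E10.5 groups 3 of 7 were at least 2-fold lower in triple null embryos, beside 4.47% of all genes, opposite to Lin28a. For triple null against E9.5 MafG-intact embryos, Spp2 was lower by a difference of -3.62, and Apoa1 read -5.36 in triple null and -2.19 in E9.5 MafG-intact embryos. Their part in the values of the Lin28 genes was not tested. Among genes next to a member, Liph, beside Igf2bp2 and named after its value was seen, was at -1.01 between triple null and E9.5 MafG-intact embryos and dim, at -6.40 in triple null and -5.40 in E9.5 MafG-intact embryos.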
